A study of Homo sapiens with 8 samples.

Results

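Compounds 4 and 5 were compared directly in HepG2 cells, a human liver cancer line, that overexpress CYP2C19, a drug-metabolizing cytochrome P450 enzyme. The members are the 2 libraries treated with compound 4 (metylcresol in the labels) and the 2 treated with compound 5 (tetrabut), chosen by their treatment labels, which makes 4 of the 8 libraries of the series. The 2 DMSO libraries served to show which compound moved a gene away from the solvent control, and the 2 libraries of compound 6 (cyclohexil) were set beside them. All cells came from the same blasticidin-selected line, received compound or solvent for a day, and were sequenced as mRNA. Each compound was given at its own IC50, so the concentrations were close but not equal. Replicates 1 and 2 are named as day 1 and day 2 in the labels, without stating separate cultures, so p-values measure the spread between these samples, which may be technical.

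Both compounds are bisphenol antioxidants of plastics with a tert-butyl group beside each hydroxyl group. Compound 4 has a methylene bridge and a methyl group opposite each hydroxyl group. Compound 5 has an ethylidene bridge and a further tert-butyl group at that position. Compound 6 shares the bridge and the methyl groups of compound 4 and carries cyclohexyl in place of tert-butyl.

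Liver cells sense lipophilic molecules through ligand-activated transcription factors. The farnesoid X receptor (FXR) responds to bile acids and raises bile acid exporters and several plasma protein genes, the aryl hydrocarbon receptor (AHR) raises CYP1A1, and the vitamin D receptor raises CYP24A1. Bone morphogenetic proteins (BMPs) act through SMAD proteins and raise the ID genes and ATOH8. Secreted proteins such as fibrinogen enter the endoplasmic reticulum (ER) through the SEC61 channel and are glycosylated there.

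The totals of the 4 libraries were 10772819 and 13042436 counts for compound 4 and 12863644 and 17814595 for compound 5. Levels are given as CPM, the count scaled to a common library size, for replicates 1 and 2 in that order. CYP2C19 lay at 31.4 and 44.3 CPM under compound 4 and at 52.8 and 37.96 under compound 5, against 27.7 and 16.4 under DMSO, and the counts do not separate the introduced from the endogenous gene. The ranges of both compounds overlapped, with a log2 difference, compound 4 minus compound 5, of −0.25 (95% interval −0.81 to 0.31, adjusted p = 0.64, edgeR). All 9 hepatocyte-derived markers were detected, and ALB ranged from 14369 to 20660 CPM over the 8 libraries. COL1A1 and COL3A1, which define fibroblasts, had at most 1 count in any library, and PTPRC, CD3E and MS4A1, which define leukocytes, had 0. Other markers of such cells were expressed. PDGFRB, of the fibroblast list, ranged from 5.02 to 25.3 CPM over the 8 libraries. CD68 and LYZ, of the leukocyte list, ranged from 20.03 to 39.3 and from 1380 to 2164 CPM. The cholangiocyte markers KRT19, EPCAM and SOX9 ranged from 112 to 215, 131 to 176 and 110 to 172 CPM, while KRT7 had at most 1 count. In RNA from whole cultures, fewer cells of a type and less RNA per cell cannot be told apart.

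Of 13400 genes tested, 42 (0.313%) passed the threshold, an adjusted p under 0.05 in edgeR's quasi-likelihood test. Among them, 25 (0.187%) were higher under compound 4 and 17 (0.127%) were higher under compound 5. The 2 compounds' libraries did not overlap for any of the 42 genes, as for 44.5% of all tested genes. At an unadjusted p under 0.05, 2177 genes (16.2%) differed, 8.62% higher and 7.63% lower under compound 4. With the replicate number as a block the count was 128 (0.955%), and with DESeq2 it was 210, each including all 42 genes. A fit without 1 library has fewer degrees of freedom for the spread and a group with a lone library, so its count cannot show the part of that library. The count was lower whenever 1 library was left out, also 1 of DMSO or compound 6, which do not enter the difference. It was 17 or 19 when replicate 1 or replicate 2 of DMSO was left out, and 9 or 10 in the same way for compound 4. Leaving out a compound 5 library gave 25 (replicate 1) or 11 (replicate 2), and a compound 6 library 16 or 24. In each of these fits all 42 genes had the same direction. SLC51A, FGG, ABCC3, SLC16A6, SRCIN1 and CYP1A1 passed the threshold under all 16 alternatives.

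**Figure D1:**
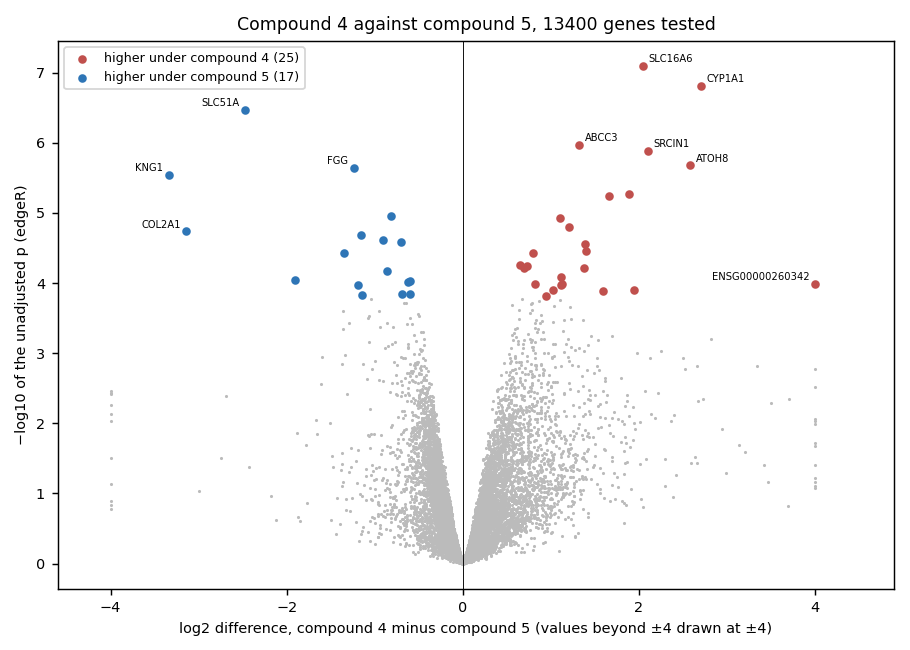
Log2 difference between compound 4 and compound 5 (x axis, positive where compound 4 was higher) against −log10 of the unadjusted p of edgeR (y axis) for 13400 genes, with values beyond 4 in either direction drawn at 4. Coloured points are the 42 genes past the threshold, with SLC16A6 and CYP1A1 at the top on the side of compound 4 and SLC51A on that of compound 5.

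The precision of the comparison was set by the 2 replicates. The 95% interval of the difference lay within 2-fold in either direction for 10364 genes (77.3%) and within 1.5-fold for 6665 (49.7%). The median difference over all genes was −0.01. For most genes a difference above 2-fold was therefore outside the interval, and the smallest absolute differences that passed the threshold were 0.60 on the log2 scale on the side of compound 5 and 0.65 on that of compound 4.

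Among the genes higher under compound 5 were both subunits of a bile acid exporter and 4 plasma protein genes. SLC51A and SLC51B encode the subunits of the exporter that passes bile acids from the cell to the blood, and KNG1 encodes kininogen, the plasma precursor of bradykinin. The RefSeq promoters of these genes on GRCh38.p14 are shown, from 250 bases before to 50 bases after the gene start. The genes were picked after the values were seen, and COL2A1 (−3.14), which differed more than SLC51A and SLC51B, is not shown. CYP1A1 is added, which had the largest difference of the other side among the called genes with a count in every library. The windows are chr3:196216284-196216583 for SLC51A, chr15:65045137-65045436 for SLC51B and chr3:186717109-186717408 for KNG1, all on the plus strand, and chr15:74725479-74725778 on the minus strand for CYP1A1. Capitals mark the nuclear receptor half-site AGGTCA on either strand in the first 3, and the core of the AHR element, GCGTG, on either strand in CYP1A1.
SLC51A: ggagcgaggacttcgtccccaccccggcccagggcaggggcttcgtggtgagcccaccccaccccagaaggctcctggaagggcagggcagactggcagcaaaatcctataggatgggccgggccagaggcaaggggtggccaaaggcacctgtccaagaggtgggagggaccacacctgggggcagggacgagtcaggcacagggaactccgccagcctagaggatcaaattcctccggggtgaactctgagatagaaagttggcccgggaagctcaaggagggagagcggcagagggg
SLC51B: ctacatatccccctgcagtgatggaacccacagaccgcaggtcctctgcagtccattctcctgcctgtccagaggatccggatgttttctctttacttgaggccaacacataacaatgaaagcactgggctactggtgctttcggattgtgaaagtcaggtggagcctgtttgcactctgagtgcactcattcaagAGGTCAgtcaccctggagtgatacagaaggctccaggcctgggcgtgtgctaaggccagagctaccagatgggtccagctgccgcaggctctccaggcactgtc
KNG1: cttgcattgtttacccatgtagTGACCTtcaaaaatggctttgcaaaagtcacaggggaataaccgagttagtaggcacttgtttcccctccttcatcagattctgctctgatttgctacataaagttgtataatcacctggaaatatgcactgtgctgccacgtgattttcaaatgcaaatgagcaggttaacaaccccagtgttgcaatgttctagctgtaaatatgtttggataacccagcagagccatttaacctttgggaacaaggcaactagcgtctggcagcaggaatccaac
CYP1A1: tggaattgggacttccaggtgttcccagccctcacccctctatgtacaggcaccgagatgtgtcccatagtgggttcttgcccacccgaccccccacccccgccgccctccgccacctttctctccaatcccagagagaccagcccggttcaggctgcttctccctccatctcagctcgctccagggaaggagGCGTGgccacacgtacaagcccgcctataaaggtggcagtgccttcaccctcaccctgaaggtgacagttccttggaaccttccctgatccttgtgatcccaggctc

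The half-site occurred in the windows of SLC51B, 54 bases before the gene start, and of KNG1, 228 bases before it, and not in that of SLC51A. The SLC51A window, from 196216284, lies inside the GENCODE span of the gene (196211487 to 196243178). The region before the GENCODE start was not searched. It was present in 13.9% of 27305 RefSeq promoters, in 2 of 14 promoters of genes higher under compound 5 and in 0 of 17 of genes higher under compound 4. The AHR core occurred 57 bases before the start of CYP1A1, in 36.3% of all promoters, and in 6 of 14 and 8 of 17 promoters of the called genes. These motifs were chosen after the gene values were seen. AP-1 sites (TGANTCA) were in 0 of 14 and 1 of 17, the CRE half-site (TGACG) in 3 and 1, the sterol response element core (CACCCCA) in 1 and 3, the antioxidant response element core (TGACNNNGC) in 1 and 2, and the E-box (CACGTG) in 2 and 0. Among all promoters these 5 motifs, searched on both strands, occurred in 7.76%, 25.0%, 7.83%, 13.6% and 7.43%.

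SLC51A (chromosome 3, 196211487 to 196243178) lay at 45.2 and 49.2 CPM under compound 5 and at 10.4 and 6.69 under compound 4. The DMSO libraries held 7.69 and 8.12 CPM and those of compound 6 held 10.4 and 8.05. The libraries of compound 5 stood above the other 6. Compounds 4 and 5 differed by −2.48 on the log2 scale (95% interval −2.93 to −2.02, adjusted p = 0.0015). Against DMSO, the gene rose under compound 5 by 2.58 on the log2 scale (adjusted p = 0.00091), whereas compound 4 gave 0.10 (adjusted p = 0.81). SLC51A overlaps PCYT1A on the opposite strand.

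SLC51B (chromosome 15, 65045370 to 65053396) held 57.2 and 73.3 CPM under compound 5, 30.3 and 28.7 under compound 4, and 10.4 and 13.6 under DMSO. The exporter's other subunit was thus raised by both compounds, and more by compound 5. The log2 difference between them was −1.15 (95% interval −1.58 to −0.72, adjusted p = 0.048), and the differences from DMSO were 1.29 for compound 4 (adjusted p = 0.0084) and 2.44 for compound 5 (adjusted p = 0.0012). KNG1 (chromosome 3, 186717276 to 186744410) was a low gene, with 6.34 and 7.45 CPM under compound 5, 0.751 and 0.608 under compound 4, and 0.717 and 1.09 under DMSO. Its log2 difference was −3.34 (95% interval −4.11 to −2.56, adjusted p = 0.0048), and against DMSO it rose under compound 5 (2.90, adjusted p = 0.0031) and lay at −0.44 under compound 4 (adjusted p = 0.56).

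The 3 chains of fibrinogen, the clotting protein secreted by the liver, were all higher under compound 5, and they share a stretch of chromosome 4. FGG (154604134 to 154612967) held 1225 and 1373 CPM under compound 5, 604 and 495 under compound 4, and 954 and 1072 under DMSO. FGA (154583126 to 154590766) held 728 and 781 CPM under compound 5, 385 and 292 under compound 4, and 530 and 510 under DMSO. FGB (154562956 to 154571086) held 254 and 285 CPM under compound 5, 153 and 134 under compound 4, and 172 and 200.3 under DMSO. In each case DMSO lay between the compounds. The log2 differences were −1.24 for FGG, −1.16 for FGA and −0.91 for FGB, with adjusted p = 0.0044, 0.018 and 0.02 (edgeR). Against DMSO, FGG and FGA fell under compound 4 (−0.88 and −0.62, adjusted p = 0.0053 and 0.032), while FGB rose under compound 5 (0.53, adjusted p = 0.03). The other differences were 0.36 for FGG and 0.54 for FGA under compound 5 (adjusted p = 0.098 and 0.055) and −0.38 for FGB under compound 4 (adjusted p = 0.079).

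A list of 20 FXR target genes, written after these values were seen, held 18 tested genes. Of these, the 6 genes already described were lower under compound 4, beside 0.127% of all tested genes, and 0 were higher. Since the list was written with these calls in view, the count is not independent of them. The median of the list was −0.22, beside −0.01 over all genes, and −0.44 without replicate 1 of compound 4. In the list of 27 tested acute phase and secreted liver proteins, 3 passed, all of them fibrinogen genes, beside 0.127% of all tested genes lower under compound 4. Its median was −0.12, 9 members lay above 0, and leaving out replicate 1 or replicate 2 of compound 4 gave −0.33 or 0.04. Other members did not pass. UGT2B4, which glucuronidates bile acids, lay at −0.88 (adjusted p = 0.087), ABCB4, which exports phospholipid into bile, at −0.62 (adjusted p = 0.14) and NR0B2, a repressor of bile acid synthesis, at −0.32 (95% interval −0.55 to −0.08, adjusted p = 0.2). The canalicular exporter ABCC2 lay at −0.04 (95% interval −0.33 to 0.25), and BAAT, which conjugates bile acids, was the highest member at 0.13. CYP7A1, the rate-limiting enzyme of bile acid synthesis, had at most 10 counts in any library and was not tested. Among 10 tested bile acid synthesis enzymes, a list also written afterwards, 0 passed, and they ran from −0.86 for AKR1D1 to 0.59 for HSD3B7.

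The calls on these genes differed in how many fits without 1 library kept them. Such fits have fewer degrees of freedom, so a lost call does not show that it rested on the library left out. SLC51A and FGG remained past the threshold without any single library. KNG1 lost the call without either library of compound 4 or compound 5 replicate 2 (adjusted p up to 0.071), and FGA lost it without DMSO replicate 1, compound 4 replicate 2 or either library of compound 5 (up to 0.096). FGB lost it without either library of compound 4, compound 5 replicate 2 or compound 6 replicate 1 (up to 0.13). SLC51B kept it only without compound 6 replicate 2 (up to 0.23 otherwise, edgeR).

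SEC61A1, RRBP1 and SELENOS, which encode proteins of the ER, were also higher under compound 5. SEC61A1, the channel through which new proteins enter, lay at 942 and 947 CPM under compound 5, 609.6 and 634 under compound 4, and 556 and 608 under DMSO. RRBP1, a ribosome-binding protein of the rough ER, lay at 1426 and 1378, 831 and 888, and 949 and 893 CPM in the same order. SELENOS, which takes part in the removal of misfolded ER proteins, lay at 98.5 and 89.5, 56.9 and 59.1, and 49.6 and 50.4 CPM. For all 3, the libraries of compound 5 stood above the other 6 libraries of the series. The log2 differences were −0.60, −0.71 and −0.70, with adjusted p = 0.041, 0.02 and 0.048 (edgeR). Each rose under compound 5 against DMSO, by 0.70, 0.61 and 0.91 (adjusted p = 0.0056, 0.0093 and 0.0047), and lay between −0.10 and 0.21 under compound 4 (adjusted p of at least 0.27).

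A list of 33 genes of ER translocation and N-glycosylation, written after these values were seen, was tested in full. Since the list was written with the calls in view, its counts are not independent of them. Its median was −0.33, beside −0.01 over all genes, and 29 of 33 genes lay below 0, beside 6819 of 13400. Lower under compound 4 and past the threshold were 3 genes, beside 0.127% of all tested genes. With the replicate block there were 8, beside 42 lower genes of 13400. The further 5 were SRPRB, SURF4, NCLN, RPN1 and LRRC59, with differences from −0.63 to −0.44. TMEM147, the highest member, lay at 0.37 (95% interval 0.11 to 0.63, adjusted p = 0.18). Leaving out replicate 1 of compound 5 moved the median to −0.23, and leaving out its replicate 2 to −0.42. All 33 intervals lay within 2-fold, against 77.3% of all genes, so the differences of this group were small. Of 20 ER chaperones, 0 passed the threshold, beside 0.313% of all tested genes. An unadjusted p under 0.05 was found for 10, all lower under compound 4, beside 7.63% of all tested genes. Their median was −0.32, and they ran from −0.83 for HERPUD1 to 0.02 for DNAJB11. The calls on SEC61A1 and SELENOS were lost when any single library was left out (adjusted p up to 0.21 and 0.24), and RRBP1 kept its call only without compound 6 replicate 2 (up to 0.15 otherwise).

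**Figure D2:**
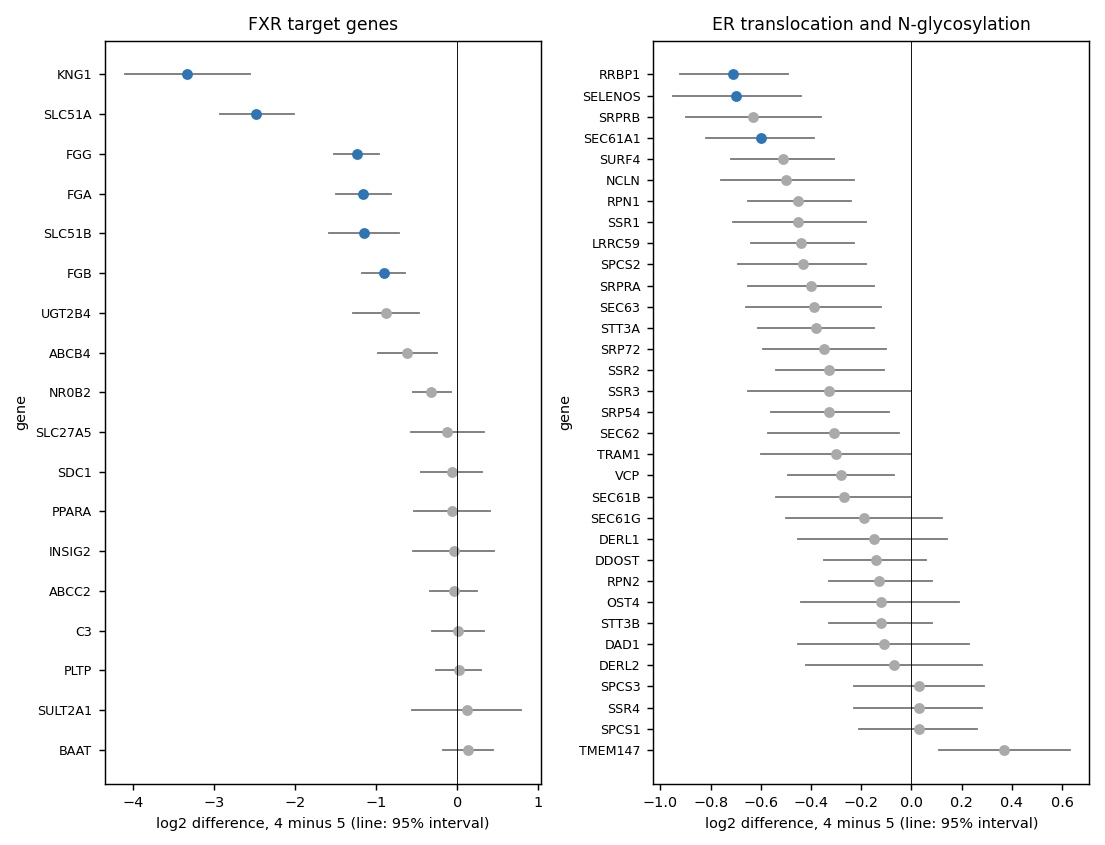
Log2 difference, compound 4 minus compound 5 (x axis, point with 95% interval), of each tested gene (y axis) of the FXR target list and of the ER translocation and N-glycosylation list. Blue points passed the threshold, 6 on the left panel and 3 on the right, and all lay below 0.

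The remaining genes higher under compound 5 had no shared role among the lists. AOC4P, a transcribed pseudogene of the amine oxidase family whose reads the counting could share with its relatives, held 13.0 and 15.9 CPM under compound 5, 5.07 and 2.74 under compound 4, and 4.92 and 4.52 under DMSO. STK32C, a protein kinase, held 59.3 and 85.8, 26.8 and 30.2, and 22.7 and 27.5 CPM. TMEM39A, an ER membrane protein, held 132 and 121, 62.6 and 76.7, and 65.3 and 60.7 CPM. HS6ST1, which sulfates heparan sulfate chains, held 266.5 and 294, 163 and 156, and 148 and 151 CPM. All 4 rose under compound 5 against DMSO (1.62, 1.53, 1.01 and 0.91, adjusted p = 0.015, 0.0047, 0.0047 and 0.003) and lay between −0.29 and 0.18 under compound 4 (adjusted p of at least 0.51). Their log2 differences were −1.91, −1.35, −0.86 and −0.81 (adjusted p = 0.041, 0.024, 0.034 and 0.013, edgeR).

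For 4 further genes the difference came with a decrease under compound 4. COL2A1, the chain of type II collagen, held 0.281 and 0.380 CPM under compound 4, from 3 and 5 counts, against 3.13 and 2.96 under compound 5 and 3.07 and 3.52 under DMSO. Compound 6 was intermediate, at 1.08 and 1.33 CPM. The log2 difference was −3.14 (95% interval −4.05 to −2.24, adjusted p = 0.018), and the fall against DMSO was −3.26 (adjusted p = 0.0039). EPHA1, an ephrin receptor, held 10.7 and 8.82 CPM under compound 4, 19.1 and 25.0 under compound 5 and 21.01 and 17.9 under DMSO (difference −1.19, adjusted p = 0.041). HNRNPR, an RNA-binding protein, and HCFC1, a transcriptional coregulator, differed by −0.62 and −0.60 (adjusted p = 0.041 and 0.048), and both fell under compound 4 against DMSO (−0.56 and −0.45, adjusted p = 0.012 and 0.024).

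Among these 8 genes, HS6ST1 kept its call without any library other than those of compound 4 and compound 5 replicate 2 (adjusted p up to 0.096). COL2A1 lost it without any of the 4 libraries compared (up to 0.15). STK32C lost it without DMSO replicate 1, either library of compound 4, compound 5 replicate 2 or compound 6 replicate 1 (up to 0.19). AOC4P kept it only without compound 6 replicate 2 (up to 0.15 otherwise) and EPHA1 only without compound 5 replicate 1 (up to 0.17 otherwise). TMEM39A, HNRNPR and HCFC1 lost it without any single library (up to 0.19, 0.19 and 0.24, edgeR).

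The side of compound 4 included metabolic enzymes and transporters. CYP1A1 (chromosome 15, 74719542 to 74725610), the P450 enzyme induced through AHR, held 59.5 and 69.1 CPM under compound 4, 10.8 and 9.05 under compound 5, and 5.94 and 4.69 under DMSO. Compound 6 gave 15.5 and 23.2 CPM, so the libraries of compound 4 stood above the other 6. The log2 difference was 2.70 (95% interval 2.25 to 3.16, adjusted p = 0.001). Both compounds raised the gene against DMSO, by 3.60 for compound 4 (adjusted p = 8.8e-05) and 0.90 for compound 5 (adjusted p = 0.048). Among the 6 tested AHR targets CYP1A1 was the 1 gene past the threshold, beside 0.187% of all tested genes higher under compound 4. ALDH3A1 lay at 1.53 (95% interval 0.78 to 2.28, adjusted p = 0.096), while UGT1A6, TIPARP, AHR and NQO1 lay between −0.19 and 0.01, and CYP1A2 had at most 5 counts in any library and was not tested.

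CYP24A1 (chromosome 20, 54153449 to 54173973), which inactivates vitamin D, held 853 and 920 CPM under compound 4, 316 and 244 under compound 5, and 133 and 87.3 under DMSO. Compound 6 was intermediate at 465 and 489 CPM. The log2 difference was 1.66 (95% interval 1.24 to 2.08, adjusted p = 0.0078), and the gene rose against DMSO by 3.01 and 1.35 for the respective compounds (adjusted p = 0.00012 and 0.0062). The receptor itself, VDR, held between 0.412 and 2.09 CPM in all libraries and differed by 0.01 (95% interval −1.45 to 1.47). In a list of vitamin D receptor targets and partners written after these values were seen, CYP24A1 was the 1 gene of 4 tested that passed. Of all tested genes 0.187% passed and were higher under compound 4. CD14 lay at 1.00 (adjusted p = 0.3, edgeR) and RXRA at −0.11 (adjusted p = 0.59).

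ABCC3 (chromosome 17, 50634777 to 50692252) exports glucuronides and bile acids to the blood side, as the SLC51 exporter does for bile acids. It held 130 and 140.4 CPM under compound 4, 56.6 and 52.0 under compound 5, and 63.0 and 51.3 under DMSO. Compound 6 gave 133 and 135.5 CPM, within the range of compound 4. The log2 difference was 1.32 (95% interval 1.04 to 1.59, adjusted p = 0.0035), opposite in sign to that of SLC51A and SLC51B. ABCC3 rose under compound 4 against DMSO (1.25, adjusted p = 0.0016) and lay at −0.07 under compound 5 (adjusted p = 0.72). It was the 1 called gene of 29 tested NRF2 targets, beside 0.187% of all tested genes higher under compound 4. The median of these targets was −0.04 (−0.14 to 0.07 with 1 library left out), and the lowest was SLC7A11 at −0.56 (adjusted p = 0.34, edgeR).

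SLC16A6 (chromosome 17, 68267026 to 68291267), a monocarboxylate transporter that exports ketone bodies, held 53.8 and 53.6 CPM under compound 4, 14.5 and 11.7 under compound 5, and 5.53 and 4.52 under DMSO. Compound 6 was intermediate at 25.8 and 26.0 CPM. The log2 difference was 2.04 (95% interval 1.72 to 2.36, adjusted p = 0.001), with increases against DMSO of 3.42 and 1.38 (adjusted p = 2.9e-05 and 0.0047). ARSG, a lysosomal sulfatase that overlaps SLC16A6 on the opposite strand, held 12.2 and 12.1 CPM under compound 4, 4.03 and 5.12 under compound 5, and 5.64 and 5.11 under DMSO (difference 1.39, adjusted p = 0.024). The strand setting of the counting is not given, so reads of this pair may not be fully separated, and ARSG also overlaps ENSG00000267009 on its own strand.

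SRCIN1 (chromosome 17, 38530016 to 38605930), an adaptor that inhibits the kinase SRC, was the 1 gene past the threshold against DMSO in opposite directions. It held 12.1 and 11.8 CPM under compound 4, 2.47 and 3.02 under compound 5, and 6.56 and 5.36 under DMSO, so the control lay between the compounds. Compound 6 gave 11.97 and 11.5 CPM, close to compound 4. The log2 difference was 2.10 (95% interval 1.66 to 2.55, adjusted p = 0.0035), made up of a rise of 1.01 with compound 4 (adjusted p = 0.015) and a fall with compound 5 of −1.10 (adjusted p = 0.017).

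**Figure D3:**
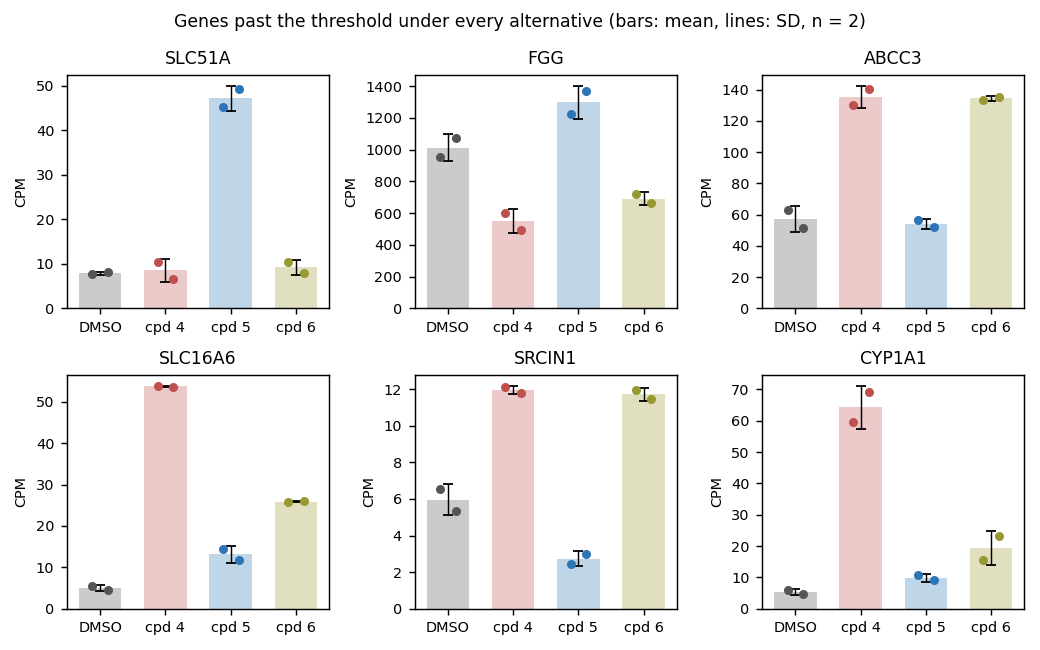
CPM (y axis) of the 6 genes past the threshold under every alternative, in the 4 groups (x axis, cpd for compound). Points are the 2 libraries, bars the mean and lines the SD. SLC51A and FGG are highest under compound 5, CYP1A1 and SLC16A6 under compound 4, and ABCC3 and SRCIN1 are high under compounds 4 and 6 alike.

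ATOH8, ENG and ID2, which belong to the BMP pathway, were higher under compound 4. ATOH8, a helix-loop-helix transcription factor, held 7.88 and 9.50 CPM under compound 4, 1.40 and 1.48 under compound 5, 1.74 and 1.84 under DMSO and 2.26 and 2.37 under compound 6. Its libraries under compound 4 stood apart from the other 6 (difference 2.58, 95% interval 2.00 to 3.16, adjusted p = 0.0044). ENG, a co-receptor for BMPs, held 25.2 and 24.2 CPM under compound 4, 11.6 and 9.85 under compound 5 and 7.99 and 6.53 under DMSO (difference 1.21, adjusted p = 0.016). ID2, which blocks helix-loop-helix factors, held 145 and 121.5, 75.0 and 77.9, and 97.3 and 93.6 CPM in the same order (difference 0.80, adjusted p = 0.024). All 3 rose against DMSO under compound 4 (2.27, 1.77 and 0.48, adjusted p = 0.003, 0.0013 and 0.029), and under compound 5 they lay at −0.31, 0.56 and −0.32 (adjusted p = 0.52, 0.066 and 0.1).

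These genes belong to a list of 11 tested BMP and SMAD targets that was written after the values were seen. Its counts are therefore not independent of the calls. Of the 11, 3 passed, all higher under compound 4, beside 0.187% of all tested genes. Above 0 lay 9, beside 6579 of 13400, and the median was 0.52, beside −0.01. HAMP, the iron hormone hepcidin, lay at 0.90 (95% interval 0.02 to 1.79, adjusted p = 0.3), SMAD7 at 0.58 (adjusted p = 0.12) and ID1 at 0.36 (adjusted p = 0.27). ID3 lay at −0.06 (95% interval −0.41 to 0.29) and ID4 at −0.03 (95% interval −1.04 to 0.98). ATOH8 lost its call without compound 4 replicate 2 or compound 5 replicate 2 (adjusted p up to 0.064), and ENG without either library of compound 4 or compound 5 replicate 2 (up to 0.12). ID2 kept it only without compound 4 replicate 2 (up to 0.15 otherwise).

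Matrix, adhesion and membrane genes were further members of this side. ITGAV, the alpha V integrin subunit, held 153 and 162 CPM under compound 4, 96.6 and 82.2 under compound 5 and 114 and 104 under DMSO (difference 0.82, adjusted p = 0.041). It was the 1 called gene of 20 tested adhesion and invasion genes, beside 0.187% of all tested genes higher under compound 4. The list had a median of 0.50 (0.31 without replicate 2 of compound 5), with 17 members above 0, beside 6579 of 13400. Values ran from −0.53 for JAG1 to 3.20 for MMP7 (95% interval 0.49 to 5.91, adjusted p = 0.25, edgeR). MMP7 had 1 count in each library of compound 5. SCNN1A, a subunit of the epithelial sodium channel, held 36.7 and 32.1 CPM under compound 4, 10.95 and 7.85 under compound 5 and 17.9 and 13.1 under DMSO (difference 1.88, 95% interval 1.41 to 2.35, adjusted p = 0.0078). MEGF6, an EGF-repeat protein, held 27.0 and 34.7, 13.1 and 7.80, and 16.7 and 10.7 CPM (difference 1.59, adjusted p = 0.045). SLC37A2, a sugar-phosphate exchanger, held 4.50 and 4.71, 0.988 and 1.37, and 1.13 and 1.01 CPM (difference 1.94, adjusted p = 0.045). Each of these 4 genes rose against DMSO under compound 4 (0.53, 1.15, 1.18 and 2.11, adjusted p = 0.033, 0.012, 0.023 and 0.0079).

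ADAMTSL4, a protein of microfibrils, and HSPG2, the basement membrane proteoglycan perlecan, passed the threshold against DMSO under compound 5 alone. ADAMTSL4 held 14.8 and 11.3 CPM under compound 4, 4.69 and 5.29 under compound 5 and 10.8 and 8.46 under DMSO (difference 1.38, adjusted p = 0.033). HSPG2 held 34.7 and 43.2, 18.03 and 17.8, and 36.4 and 30.7 CPM (difference 1.12, adjusted p = 0.041). Both fell under compound 5 against DMSO (−0.93 and −0.90, adjusted p = 0.029 and 0.019, edgeR). Under compound 4 they lay at 0.44 and 0.22 (adjusted p = 0.18 and 0.45). ANGPTL8, a regulator of lipoprotein lipase, PON2, a paraoxonase, MIF4GD, which acts in histone mRNA translation, and NFE2L1, a transcription factor for proteasome genes, followed the same pattern. They differed by 1.12, 0.73, 1.02 and 0.65, and their falls under compound 5 against DMSO were −0.99, −0.58, −0.74 and −0.48 (adjusted p = 0.015, 0.015, 0.031 and 0.02, edgeR).

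Further genes rose against DMSO under compound 4 and not past the threshold under compound 5. These were ZMYND15, a transcriptional repressor, at 11.6 and 12.3 CPM under compound 4, 4.61 and 4.55 under compound 5 and 5.53 and 4.36 under DMSO (difference 1.39, adjusted p = 0.02), PLAC8 (1.11, adjusted p = 0.041), LGALS3, the lectin galectin-3 (1.10, adjusted p = 0.013), TNFRSF14, a receptor of the TNF family (0.94, adjusted p = 0.049), and the glycolytic enzyme ENO2 (0.70, adjusted p = 0.033). ENO2 overlaps LRRC23 on the same strand. It was the 1 called gene of 30 tested in the hypoxia and glycolysis list, beside 0.187% of all tested genes higher under compound 4. The median of that list was 0.14 (−0.09 without replicate 1 of compound 4 and 0.26 without its replicate 2). ENSG00000260342 had the largest fitted difference, 7.81, but the value rests on zeros. It held 3.10 and 1.60 CPM under compound 4, 3.28 and 2.26 under DMSO and no count under compound 5 or 6, which makes it at least 11.2-fold higher under compound 4 against a floor of 3 counts per library. It overlaps ARL6IP1 and RPS15A on the same strand, so its counts are uncertain.

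Among the called genes of this side, CYP1A1, ABCC3, SLC16A6 and SRCIN1 kept the call without any single library. CYP24A1 and LGALS3 lost it in 3 of 8 such fits (adjusted p up to 0.071 and 0.088). For CYP24A1 these left out either library of compound 4 or compound 5 replicate 2, and for LGALS3 compound 4 replicate 1 or either library of compound 5. SCNN1A lost it without compound 4 replicate 1 or compound 5 replicate 2 (up to 0.072). HSPG2 kept it only when a library of compound 6 was left out, ZMYND15 only when a DMSO library or compound 6 replicate 2 was, ARSG and ENSG00000260342 only without compound 6 replicate 2, and MEGF6 only without compound 5 replicate 1 (up to 0.17, 0.13, 0.15, 0.19 and 0.17 otherwise). The remaining 10 genes, SLC37A2, ADAMTSL4, ANGPTL8, PLAC8, MIF4GD, TNFRSF14, ITGAV, PON2, ENO2 and NFE2L1, lost it without any single library (up to 0.24, edgeR).

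**Figure D4:**
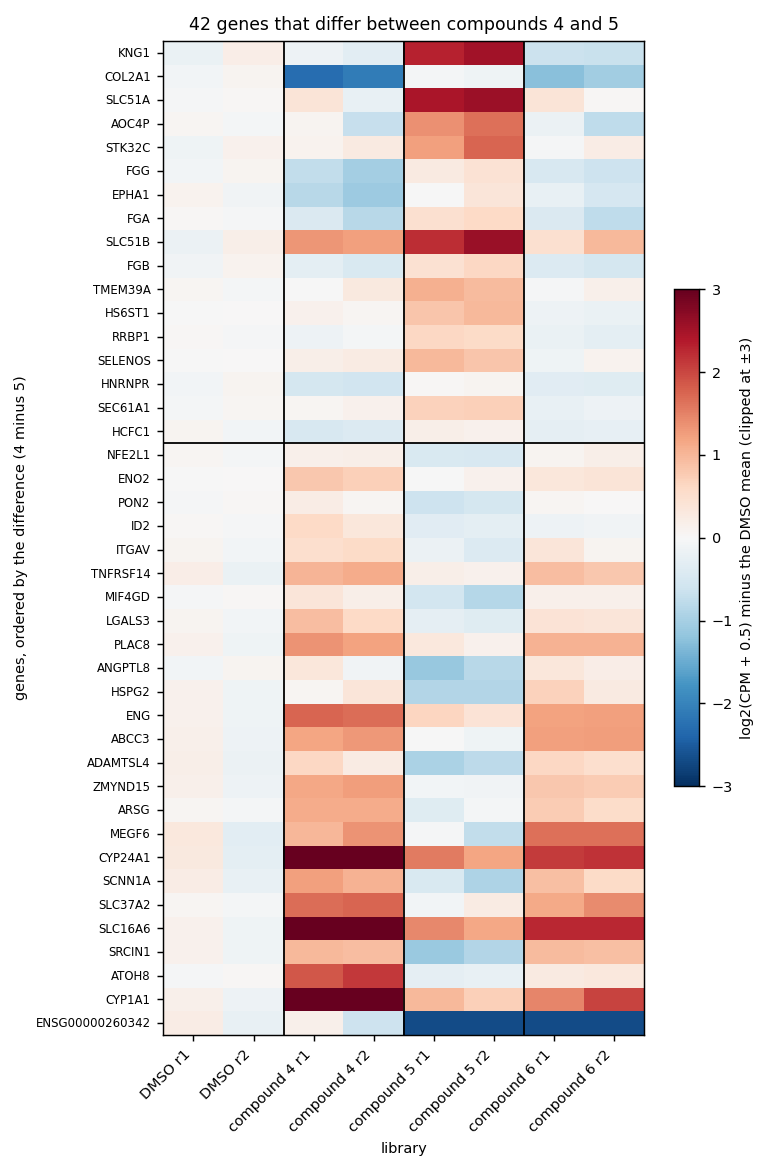
Log2(CPM + 0.5) of the 42 called genes (y axis, ordered by the difference, genes higher under compound 5 at the top) in the 8 libraries (x axis), minus the DMSO mean. The colour runs from blue (lower than DMSO) to red (higher) and is clipped at 3 in either direction. The libraries of compounds 4 and 5 differ in every gene by choice, and the DMSO columns show which compound moved.

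Set beside DMSO, the 42 genes were sorted by which compound passed the threshold. This sorting does not compare the sizes of the changes. FGA (−0.62 under compound 4 and 0.54 under compound 5) and FGB (−0.38 and 0.53) fell into different groups. Compound 4 alone passed the threshold for 20, compound 5 alone for 17, and both for 5, with the solvent libraries shared by the comparisons. Of the 25 genes higher under compound 4, 14 were past it for compound 4 alone and 7 for compound 5 alone. Of the 17 genes higher under compound 5, 10 were past it for compound 5 alone and 6 for compound 4 alone. The genes past it for both were CYP1A1, CYP24A1, SLC16A6 and SLC51B, which rose under each compound to a different extent, and SRCIN1. Over all tested genes, 9.51% passed against DMSO under compound 4 (5.6% higher, 3.91% lower) and 8.3% under compound 5 (5.35% higher, 2.95% lower). Compound 6 lay nearer to compound 4 for 34 of the 42 genes, beside 61.5% of all tested genes. The share was 16 of 17 for genes higher under compound 5, with EPHA1 as the exception, and 18 of 25 for genes higher under compound 4. The 7 exceptions there were CYP1A1, CYP24A1, SLC16A6, ATOH8, ID2, ENO2 and ENSG00000260342.

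For the cholesterol pathway, 0 of 20 tested enzymes passed the threshold between the compounds, beside 0.313% of all tested genes. The median difference was 0.02 (−0.19 and 0.18 without replicates 1 and 2 of compound 5). DHCR7, which makes cholesterol in the last step, differed by 0.10 (95% interval −0.35 to 0.54, adjusted p = 0.85), with 152 and 104 CPM against 101 and 138. The list ran from −0.40 for HSD17B7 to 0.62 for PMVK, and 19 of the 20 intervals lay within 2-fold. Under each compound 19 enzymes were past the threshold and lower against the shared DMSO libraries, beside 3.91% (compound 4) and 2.95% (compound 5) of all tested genes. Of 17 other targets of SREBP, the regulator of this pathway, 0 passed, with a median of −0.12 (−0.19 and 0.02 in the same fits).

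The apolipoproteins also did not pass. APOA1 held 2171 and 1502 CPM under compound 4 and 2244 and 2538 under compound 5, a difference of −0.38 (95% interval −0.76 to 0.00, adjusted p = 0.3). APOA4 held 13.98 and 11.6 against 15.9 and 21.3 CPM, a difference of −0.55 (95% interval −0.97 to −0.13, adjusted p = 0.2). All 4 libraries lay below those of DMSO for both genes, and under compound 4 the falls of −0.90 and −1.10 were past the threshold (adjusted p = 0.015 and 0.0097). Over the 12 listed apolipoprotein and lipoprotein assembly genes, 0 passed, beside 0.313% of all tested genes, and the median was −0.27. It was −0.44 when replicate 1 of compound 4 was left out and 0.01 when its replicate 2 was.

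Cell-cycle genes depended on the replicate of compound 5. All 35 tested mitosis genes lay below 0, beside 6819 of 13400, from −0.75 for TTK to −0.11 for PTTG1. Past the threshold were 0, beside 0.313% of all tested genes. At an unadjusted p under 0.05 there were 14, beside 7.63% of all tested genes lower under compound 4. Their median of −0.38 became −0.61 when replicate 1 of compound 5 was left out and −0.07 when its replicate 2 was. For 36 DNA replication genes it was −0.22, and −0.43 and 0.09 in the same fits, with 0 called and RRM2 lowest at −0.64. Relative to DMSO, replicates 1 and 2 of compound 5 had median values of −0.69 and −0.13 for the mitosis genes, and those of compound 4 had −0.82 and −0.73. Against the shared DMSO libraries, 25 mitosis genes were past the threshold and lower under compound 4 and 0 under compound 5. For the DNA replication genes the counts were 17 and 3. Over all tested genes the shares were 3.91% and 2.95%.

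Of 36 lists in all, beside the 5 written after the values were seen, 30 held 0 called genes. Of all tested genes 0.313% were called, so a list of this size would mostly hold none, and 0 does not show that a list did not differ. The 38 cytosolic ribosomal proteins, which served as a set of stable genes, had a median of 0.02 and all 38 intervals within 2-fold. The 12 heat shock proteins had a median of −0.02, from −0.20 for DNAJA1 to 0.11 for HSPB1, also with all intervals within 2-fold. Medians were 0.06 for 25 lysosome genes, −0.05 for 36 autophagy genes, 0.07 for 22 p53 targets and −0.01 for 14 BCL2 family genes. With 1 library left out, the medians of these 6 lists stayed between −0.14 and 0.19. In the last 4 lists the members lay between −0.56 (ULK1) and 0.81 (ATG10). CTSB, a lysosomal protease, lay at 0.68 (adjusted p = 0.093) and passed with the replicate block (0.036, range over the alternatives 2e-06 to 0.32). CYP3A5, of the PXR and CAR targets, behaved in the same way, at 1.53 (adjusted p = 0.1, with the block 0.012, range 2.1e-08 to 0.38). FOS, of the ERK and AP-1 list, lay at −1.36 (adjusted p = 0.059, with the block 0.046, range 1.6e-07 to 0.29). The amino acid and integrated stress response genes had a median of −0.25, from −0.90 for PPP1R15A to 1.15 for NUPR1, and 0 of 31 passed. That median was −0.46 without replicate 2 of compound 4 and −0.03 without replicate 1 of compound 5.

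Markers of other cell types were checked for the same difference. PDGFRB, the 1 expressed gene of the fibroblast and stellate cell list, held 23.2 and 25.3 CPM under compound 4, 11.4 and 7.63 under compound 5 and 9.12 and 5.02 under DMSO (difference 1.37, adjusted p = 0.065, with the block 0.036, range 2.3e-09 to 0.24). The summed level of that list was 23.3 and 25.4 CPM under compound 4 and 11.4 and 7.63 under compound 5, and 3 of its 6 genes had a count. CD68, of the leukocyte and macrophage list, held 39.3 and 38.6 against 25.9 and 20.03 CPM (difference 0.77, adjusted p = 0.083, with the block 0.038, range 0.00052 to 0.29). The sum of that list, mostly LYZ, was 1869 and 1420 CPM against 1780 and 1623. The summed endothelial markers lay between 0.854 and 1.41 CPM and the cholangiocyte markers between 432 and 503 CPM in the 4 libraries, with KRT7 at no more than 1 count. All cultures were of the same selected HepG2 line, and whether any other cells were present was not tested.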

How the data were processed

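RNA of 8 libraries in 4 groups of 2 was used. The authors quantified paired-end reads of directional libraries with Salmon 1.5.0 on GRCh38 and summarized the estimates per gene with tximeta. They deposited whole-number counts, not normalized, for 60230 genes. The column names of replicate 1 in the DMSO and compound 4 groups read merged with 2 S numbers each. They do not say what was merged. Whether counting used strand is not given in the sources used here. The submitters' processing notes also name FastQC 0.12.0 and DESeq2 1.38.3.

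Counts were tested in R 4.3.3 with edgeR 4.0.16 (TMM, filterByExpr at a minimum count of 10, glmQLFit and glmQLFTest in 1 fit of all 8 libraries without a block, Benjamini-Hochberg adjustment over 13400 genes, threshold 0.05). CPM were computed on the TMM library sizes. Intervals are 95% intervals from the quasi-likelihood F with its degrees of freedom. Totals ranged from 9791659 to 17814595 counts. Symbols were found for 60089 identifiers, positions come from GENCODE 29, and promoters from RefSeq (available for 14 of 17 and 17 of 25 called genes). The step was tested on simulated data. Between replicates, the mean chi-square per gene was 8.42, 14.1, 19.1 and 8.19 (DMSO, compounds 4, 5 and 6), above the 1 that counting noise gives.

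Named genes were those called, with the values in every library for the 12 largest in each direction with a mean of at least 1 CPM, the lowest, highest and called members of the lists, CYP2C19, DHCR7, APOA1 and APOA4, and some genes under this rule are not reported here. The members, 36 gene lists and this rule were chosen with earlier results of these data known; 5 further lists and 2 motifs were added after the values were seen. The replicate numbers pair the libraries through the day in the labels. The correlations of the replicate deviations between groups, over genes, ran from −0.16 (compounds 4 and 5) to 0.30 (compounds 4 and 6). Alternatives were DESeq2 1.42.0, the replicate block, a fit of the 4 libraries, DESeq2 size factors, other filters, thinning to the smallest total and leaving out each library.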

Additional observations from a re-analysis of the deposited data

How the results depend on the processing

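The number of genes that differed between compounds 4 and 5 was 42 and changed with most settings. It was 210 with DESeq2, 128 with the replicate block, 10 in a fit of only the 4 libraries compared (7 higher and 3 lower under compound 4), 750 without a filter on low counts, 65 with 10 counts in every sample, and 76 with the replicate numbers of compound 5 crossed in the block, an alternative chosen after seeing the data. Leaving out 1 library gave between 9 and 25 genes, with the lone library of a group assumed to vary like the others. DESeq2's size factors gave 41 and thinning 42, of which 41 and 36 were among the 42. The 42 genes had the same direction under every alternative in which they were tested, all 16 for 39 genes and 15 for KNG1, COL2A1 and ENSG00000260342, which lacked 10 counts in every sample. The block changed no call among them. Without a filter, compound 4 differed from DMSO in 2383 genes and compound 5 in 2431, and leaving out 1 library gave 43 to 1681 and 46 to 1814. The cause of these changes was not tested.

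Genes outside the 42 turned direction when 1 library of compound 4 or 5 was left out. Of the 36 DNA replication genes, 33 lay below 0, but their median of −0.22 became 0.09 without replicate 2 of compound 5. The 16 genes given here are only a part of those that turned. The differences ran from −0.53 to 0.01 for CYP2C19, −0.21 to 0.34 for DHCR7, −0.38 to 0.02 for DNAJA1, −0.29 to 0.12 for LYZ, −0.03 to 0.05 for DNAJB11 and −1.13 to 0.03 for LIPG. Those of the next genes ran from −0.18 to 0.35 for HSPB1, −0.16 to 0.75 for APOA5, −0.25 to 0.17 for ID3, −0.12 to 0.87 for TTR, −0.05 to 0.72 for DUSP4 and −1.02 to 0.11 for CDKN2C. The others ran from −0.01 to 0.29 for BAAT, −0.40 to 0.00 for MCL1, −0.34 to 0.17 for PTTG1 and −0.01 to 0.27 for KRT19.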

Other observations

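With the replicate number as a block, 86 genes passed the threshold between compounds 4 and 5 that did not pass without it, 61 higher and 25 lower under compound 4. All 86 had the same direction without the block, where their adjusted p reached 0.27 (edgeR). Among the lower genes with the largest change in that fit were FOS, a subunit of AP-1 (−1.35), ANTXR1, the anthrax toxin receptor (−1.08), the plasma protein A1BG (−1.07), ENSG00000268230, which overlaps A1BG and ZNF497 on the same strand (−1.03), and SLC6A14, an amino acid transporter (−1.0). With the replicate numbers of compound 5 crossed in the block, FOS, A1BG and SLC6A14 did not pass, while ANTXR1 and ENSG00000268230 did. FOS held 5.16 and 6.69 CPM under compound 4 and 17.3 and 13.5 under compound 5. ANTXR1 held 14.8 and 9.28 against 25.2 and 24.7 CPM, and the DMSO libraries, at 27.5 and 28.5, lay with compound 5.

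The higher genes with the largest change were ENSG00000275496 (2.66), LDLRAD1 (1.68), FXYD3, a regulator of the sodium pump (1.64), CYP3A5, a drug-metabolizing P450 (1.53), and the nuclear long noncoding RNA NEAT1 (1.5). ENSG00000275496 held 15.2 and 4.33 CPM under compound 4 and 1.65 and 1.14 under compound 5. CYP3A5 held 19.3 and 12.9 against 7.08 and 4.21 CPM, and DMSO held 4.41 and 2.35. NEAT1 held 497 and 536 against 254 and 134 CPM. In FXYD3, replicate 1 was above replicate 2 in all 4 groups, at 21.3 and 8.97 CPM under compound 4, 6.42 and 3.07 under compound 5, 11.8 and 4.94 under DMSO, and 10.4 and 6.73 under compound 6.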
